A study of Mus musculus with 4 samples.

Results

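Livers of YAP-KO and wildtype mice were compared 24 h after an acetaminophen overdose, by subtracting the wildtype array from the YAP-KO array for each gene. These are 2 of the 4 arrays of the series; the other 2 hold livers of the same genotypes at 0 h. Each array carried total RNA from lysates of 100 mg of liver, pooled from 3 male fasted mice, and the mice of the 24 h arrays had received 300 mg/kg acetaminophen (APAP) by intraperitoneal injection. The wildtype mice carried a floxed YAP gene. Which exons were removed, which promoter drove Cre and which liver cells lost YAP is not given in the sources used here. No array of mice 24 h into the experiment without acetaminophen was analysed here, so the drug, the time and food intake cannot be told apart. Of 30748 named genes, the 18464 whose mean over the 4 arrays reached the 40th percentile (4.32) were kept.

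YAP, encoded by Yap1, is a transcriptional coactivator that enters the nucleus when the Hippo kinases are inactive and switches on genes through TEAD proteins. In liver it is low in resting hepatocytes and is known for its roles in organ size, bile duct fate and regeneration. Acetaminophen is turned by cytochrome P450 enzymes of pericentral hepatocytes into a reactive metabolite that depletes glutathione and kills those cells; survivors and immune cells then mount stress, repair and growth programmes.

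All values below are log2 readings as deposited, and differences are YAP-KO minus wildtype at 24 h unless another time is named: 1 unit is 2-fold and 0.58 is 1.5-fold. There is 1 array per group, so no difference has a replicate error, no test was possible, and genes are described by the size of the difference on these 2 arrays. In whole liver, fewer cells of a type and less RNA per cell cannot be told apart.

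The YAP-KO array was higher by 2-fold or more for 598 genes (3.24% of those kept) and lower for 1058 (5.73%). At 1.5-fold the shares were 8.23% higher and 13.4% lower, and at 4-fold 0.563% higher (104 genes) and 1.36% lower (252 genes). The median over all genes was -0.02. Of the genes at or beyond 2-fold, 36.1% were thus higher; after quantile normalization the counts were 724 higher and 816 lower (47.0% higher), and after centring each array on its median 755 and 836 (47.5% higher), with the median over all genes at 0.09. Among protein-coding genes alone, on the deposited scale, 495 were higher and 686 lower (41.9% higher). The tilt towards lower genes therefore depended on the scale and on the gene classes counted. The genes with large differences described here kept their direction under both scalings. At 0 h only 1.01% of genes were 2-fold higher and 0.877% lower. The shares of 3.24% and 5.73% at 24 h are the background for the list counts below. They were larger among bright genes: of 1650 with a mean above 12, 175 were 2-fold higher and 196 lower.

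**Figure D1:**
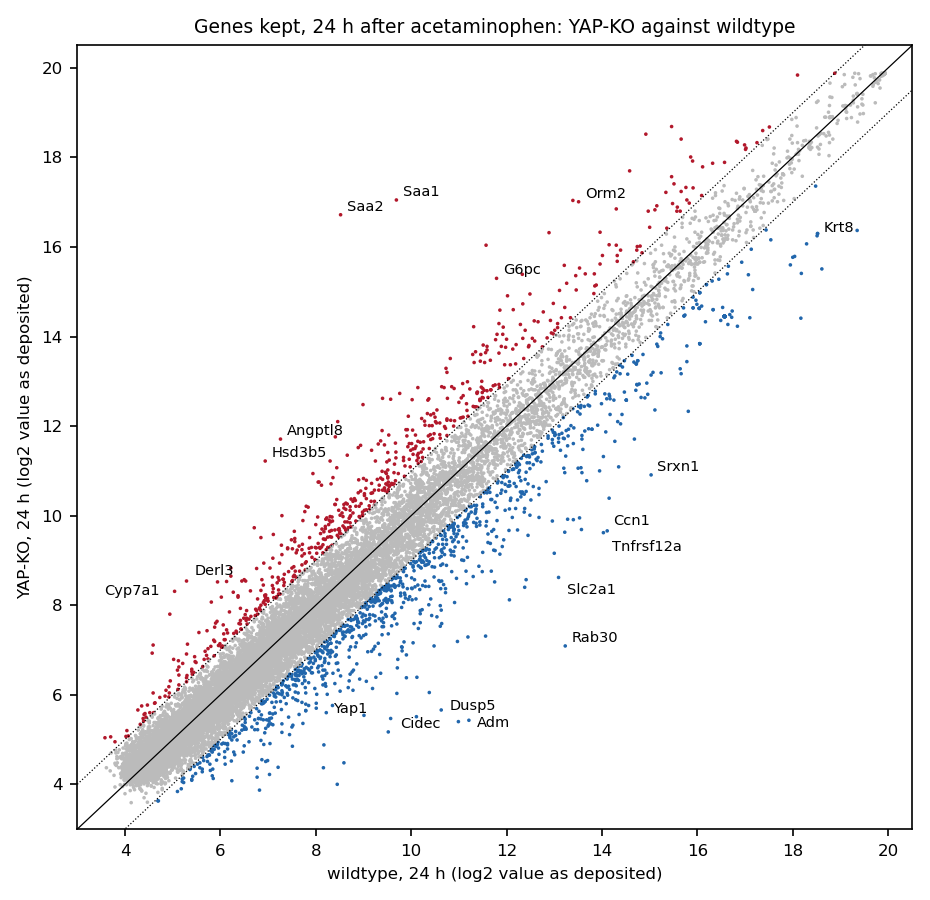
Log2 value of each of the 18464 genes kept on the YAP-KO array (vertical axis) against the wildtype array (horizontal axis), both at 24 h; dotted lines mark 2-fold, red points are higher in YAP-KO and blue points lower. Saa1 and Saa2 lie farthest above the diagonal, and Rab30, Adm and Cidec farthest below it.

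The 20 genes with the highest differences were mostly products of hepatocytes: secreted acute-phase proteins and protease inhibitors, enzymes of bile acid, steroid, drug and glucose metabolism, and parts of the machinery that folds secreted proteins. Serum amyloid A genes led with Saa2 (8.20) and Saa1 (7.36), followed by Serpina4-ps1 (4.47), Angptl8 (4.45), Hsd3b5 (4.28), Rgn (3.65), Saa4 (3.60), G6pc (3.51), Orm2 (3.50), Serpina7 (3.49), Cyp1a2 (3.43), Lpin1 (3.35), Cyp7a1 (3.27), Derl3 (3.25), Cyp2c70 (3.23), Hsd3b3 (3.22), Serpina10 (3.12), Aox3 (3.06), Sdf2l1 (3.03) and Keg1 (3.02). Many of these read high on both 0 h arrays. Rgn, which encodes the calcium-binding protein regucalcin, read 18.14 (wildtype) and 17.81 (YAP-KO) at 0 h, and 13.39 and 17.04 at 24 h. Wildtype at 24 h was the array that stood apart for this gene.

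Each of the 20 genes with the lowest differences had its highest reading of the 4 arrays in wildtype at 24 h. They were Rab30 (-6.14), Adm (-5.78), Cidec (-5.59), Dusp5 (-4.97), Hilpda (-4.60), Slc2a1 (-4.47), Ccn1 (-4.45), Ivl (-4.45), Tnfrsf12a (-4.41), Sult1e1 (-4.35), Btg1 (-4.33), Pdk4 (-4.25), Srxn1 (-4.12), Slc7a11 (-4.10), Nid1 (-3.98), Slc16a6 (-3.94), Plscr1 (-3.90), Lyve1 (-3.88), Slc25a30 (-3.84) and Slc34a2 (-3.79). Rab30, a small GTPase of the Golgi, read 7.89 (wildtype) and 7.62 (YAP-KO) at 0 h, and 13.23 and 7.09 at 24 h. Adm, the vasodilator peptide adrenomedullin, read 4.48, 4.79, 11.21 and 5.43 in the same order. Both genes were thus near their 0 h reading in YAP-KO and far above it in wildtype. Ivl read 4.37, 4.21, 8.45 and 4.0 in that order, and passed the filter only through its wildtype reading at 24 h. Not all of the 20 were low at 0 h: Srxn1 read 8.05 (wildtype) and 11.04 (YAP-KO), and Slc25a30 8.86 and 9.62. Srxn1 and Tnfrsf12a were at 0 h already higher in YAP-KO, by 2.99 and 3.35.

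**Figure D2:**
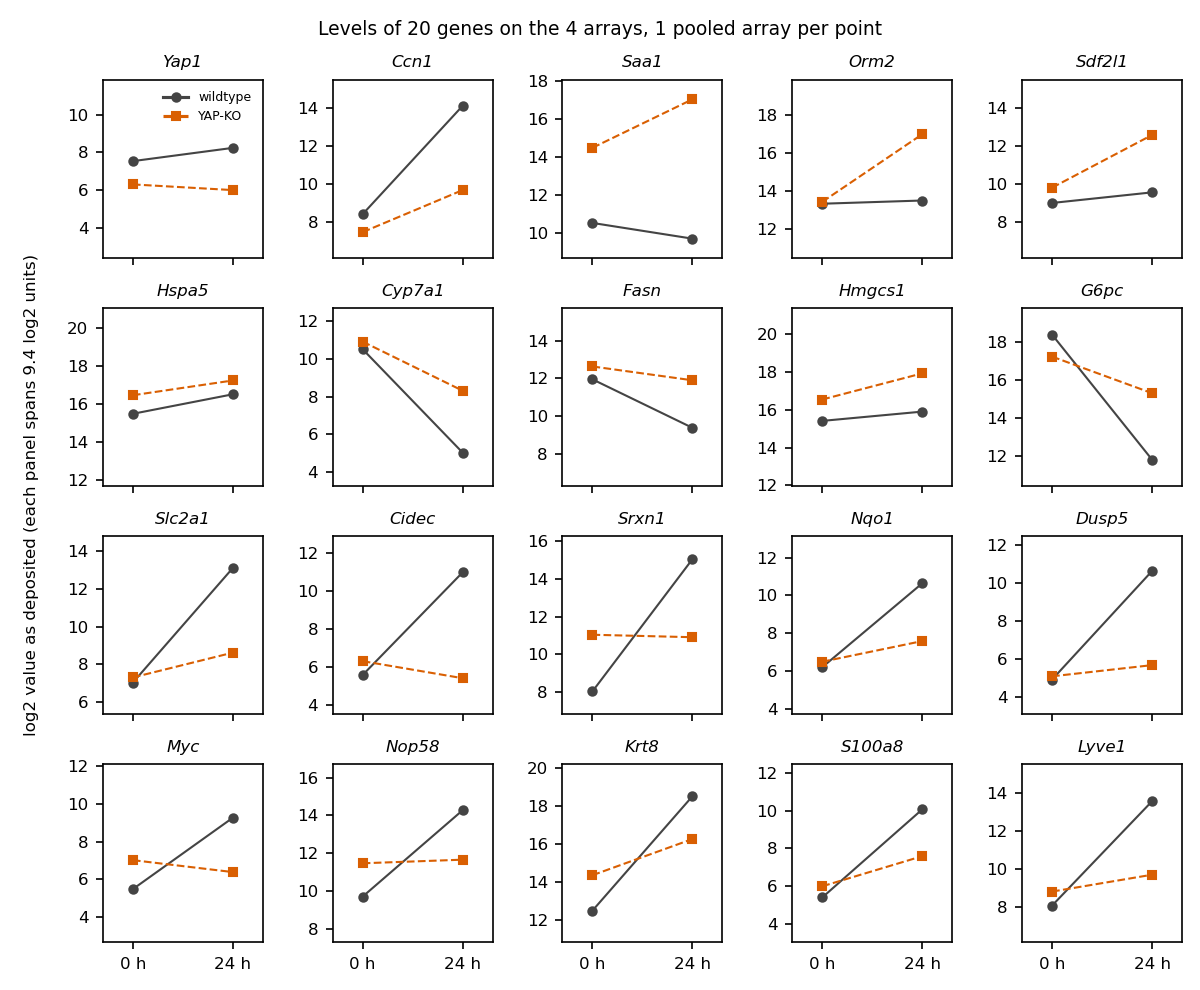
Log2 values of 20 genes on the 4 arrays, wildtype as grey circles and YAP-KO as orange squares, 1 pooled array per point, with 0 h and 24 h on the horizontal axis and the same span of values in every panel. Slc2a1, Cidec, Dusp5 and Nqo1 lie close together at 0 h and high only in wildtype at 24 h, while Saa1, Orm2 and Sdf2l1 are highest in YAP-KO at 24 h.

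The Hippo pathway was represented by 24 genes kept of 27 listed. None was 2-fold higher, 5 were 2-fold lower and the median was -0.20. Yap1 itself read 7.54 (wildtype) and 6.31 (YAP-KO) at 0 h, and 8.24 and 6.01 at 24 h, a difference of -2.23; it was lower on both YAP-KO arrays, although which exons its probes cover is not known here. Wwtr1, which encodes the paralogous coactivator TAZ, read 5.75, 5.82, 6.73 and 6.35 and differed by -0.38. Among the DNA-binding partners Tead1 differed by -1.86, Tead4 by -0.26 and Tead3 by 0.12. The lowest member was Ajuba (-2.59), a LIM protein that inhibits LATS kinases.

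The kinase core and its helpers differed less. Sav1, the scaffold of the MST kinases, differed by -1.06 and Map4k4, a parallel kinase, by -1.66, whereas Stk4 (-0.33), Lats1 (-0.34), Lats2 (-0.42), Taok1 (-0.34), Mob1a (0.05) and Mob1b (0.17) stayed within 1.5-fold. So did the upstream regulators Nf2 (0.04), Wwc1 (-0.58), Fat4 (-0.13) and Dchs1 (-0.13), the YAP-binding proteins Amot (0.22), Amotl1 (-0.05), Amotl2 (-0.13) and Ptpn14 (-0.08), the LATS-binding LIM protein Limd1 (0.16), and Vgll4 (0.16), which competes with YAP for TEAD.

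Genes known as YAP and TAZ targets were lower in part: 10 of 25 kept members were 2-fold lower, none 2-fold higher, and the median was -0.58. Another 12 were within 1.5-fold, among them Axl (-0.13), Amotl2 (-0.13) and Myof (0.03). Ajuba and Tead1 count both here and in the Hippo list. Ccn1, a matricellular protein and a classical target, read 8.39 (wildtype) and 7.44 (YAP-KO) at 0 h, and 14.11 and 9.66 at 24 h. Ccn2, its relative CTGF, read 5.73, 5.79, 9.48 and 7.75 (-1.73), and the ankyrin repeat protein gene Ankrd1 read 4.78, 5.01, 9.35 and 7.99 (-1.36). For all of these the YAP-KO reading at 24 h was still above its own 0 h reading, by 2.22 for Ccn1 and 2.98 for Ankrd1. F3, tissue factor, differed by -2.13, and the kinase gene Nuak2 was the only member 1.5-fold higher (0.67). Edn1, counted among the lower members, read 4.31, 4.30, 5.48 and 4.24 and passed the filter only through its wildtype reading at 24 h.

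The RefSeq promoter table (GRCm38.p6) gave windows from 250 bases before to 50 bases after the start for 10783 of the genes kept, and these were searched on both strands. The TEAD motif GGAATG occurred in 14.8% of all windows and in 9 of the 18 windows of YAP and TAZ targets; it occurred in 15% of the windows of 2-fold lower genes and in 17.8% of those of 2-fold higher genes. Within the target list the median difference was -0.90 with the motif and -0.93 without it. The 200 bases before the start of Ccn1 (chr3:145649986-145650185, minus strand) and Ankrd1 (chr19:36119845-36120044, minus strand) are shown because these genes are the textbook readouts of YAP; capitals mark the motif on either strand.
Ccn1: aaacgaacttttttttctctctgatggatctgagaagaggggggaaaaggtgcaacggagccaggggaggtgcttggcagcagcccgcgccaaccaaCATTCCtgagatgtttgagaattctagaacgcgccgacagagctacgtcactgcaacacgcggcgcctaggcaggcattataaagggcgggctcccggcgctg
Ankrd1: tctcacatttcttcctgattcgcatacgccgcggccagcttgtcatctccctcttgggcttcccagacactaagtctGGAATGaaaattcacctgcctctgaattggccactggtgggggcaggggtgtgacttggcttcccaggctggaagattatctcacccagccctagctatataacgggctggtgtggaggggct

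Acute-phase proteins, which hepatocytes secrete under IL-6 and IL-1, were higher in YAP-KO: 13 of 27 kept members by 2-fold or more, 1 lower, with a median of 0.88. Saa1 read 10.52 (wildtype) and 14.49 (YAP-KO) at 0 h, and 9.69 and 17.05 at 24 h, and Saa2 read 9.17, 13.48, 8.52 and 16.72. Both were thus already higher in YAP-KO before the drug, by 3.97 and 4.31, and higher still after it. Orm2, an orosomucoid, followed another pattern: it read 13.34, 13.44, 13.51 and 17.01, with only YAP-KO at 24 h apart. Saa4, the constitutive serum amyloid of lipoprotein particles, read 18.47, 18.67, 14.92 and 18.52, so that wildtype at 24 h was the low array.

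Other members were higher by smaller amounts: the secreted Crp (2.0), Steap4, a membrane metalloreductase induced by inflammation (1.93), and Apcs, the serum amyloid P component (1.90). Orm1 went from 18.88 to the highest value on the YAP-KO array (19.88) and was at least 1.0 higher. Haptoglobin (Hp, 0.07) and lipocalin 2 (Lcn2, 0.04) did not follow; Lcn2 read 11.70 and 11.74 at 24 h after 5.43 and 8.11 at 0 h. Socs3, the feedback inhibitor of IL-6 signalling, differed by -0.17, and the lipopolysaccharide co-receptor gene Cd14 went the other way at -3.73. The fibrinogen chains Fgb and Fgg were at the array maximum on both arrays, where no difference can be read.

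Saa1 and Saa2 lie close together on chromosome 7 on opposite strands, and their upstream 200 bases (chr7:46742981-46743180, minus strand, and chr7:46751633-46751832, plus strand) matched at 195 of 201 aligned positions, with 4 mismatches and 2 gap positions. They are shown because these genes had the largest differences of all; capitals mark the C/EBP-type motif TTGCNNAA. That motif occurred in 11% of all windows, in 16.8% of those of 2-fold higher genes, in 10.5% of those of 2-fold lower genes and in 12 of 22 acute-phase windows. Within the acute-phase list the median difference was 0.70 with the motif and 1.02 without it. The genes are close paralogs, and how far their probe sets read each other's transcripts was not tested.
Saa1: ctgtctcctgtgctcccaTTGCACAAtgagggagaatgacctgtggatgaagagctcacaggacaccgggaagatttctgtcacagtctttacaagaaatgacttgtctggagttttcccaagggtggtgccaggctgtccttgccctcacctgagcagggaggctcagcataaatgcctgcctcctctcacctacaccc
Saa2: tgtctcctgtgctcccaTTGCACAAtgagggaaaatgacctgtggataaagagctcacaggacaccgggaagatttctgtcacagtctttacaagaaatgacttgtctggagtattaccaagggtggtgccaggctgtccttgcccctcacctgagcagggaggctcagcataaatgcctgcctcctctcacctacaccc

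Plasma protease inhibitors and cascade proteins were higher alongside. Of 22 serpins kept, 8 were 2-fold higher and none lower (median 0.54). Serpina7, thyroxine-binding globulin, read 10.99, 12.28, 8.99 and 12.48, Serpina10, the protein Z inhibitor, 15.13, 16.67, 14.58 and 17.70, and Serpina6, the carrier of corticosterone, 14.05, 13.48, 8.66 and 11.35 in wildtype and YAP-KO at 0 h and at 24 h. Serpina3n differed by 1.74 and Serpinf2, antiplasmin, by 1.49; Serpinb6a, an intracellular serpin, was the only member 1.5-fold lower (-0.81). Each of the secreted serpins named here was higher in YAP-KO than in wildtype at 24 h, whether or not it had been so at 0 h.

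Complement genes were 2-fold higher in 8 of 25 cases and never 2-fold lower (median 0.75). The largest were the mannose-binding lectins Mbl2 (2.89) and Mbl1 (1.94), the terminal components C6 (2.11) and C8a (1.58), and the regulator C4bp (1.55). The members 1.5-fold lower were C1qb (-0.88), Cfp (-0.69) and C1qc (-0.63), which are made mainly by macrophages and other leukocytes.

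Coagulation divided in the same way, with 8 of 31 members 2-fold higher and 7 lower (median 0.23). Higher members were factors and inhibitors that hepatocytes secrete, such as Tfpi2 (2.28), Proz (1.88), F11 (1.81) and F7 (1.45). Lower members were the plasminogen-binding pair Anxa2 (-2.50) and S100a10 (-2.25), F3 (-2.13), the urokinase receptor Plaur (-2.01), the plasminogen activator Plat (-1.76), thrombomodulin (Thbd, -1.55) and F13a1 (-1.25), proteins made in endothelial, immune or injured epithelial cells. The median near 0 therefore covered both directions. The cell sources named here and for complement are background and were not tested on these arrays.

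The folding and quality-control arm of the unfolded protein response was higher. Of 32 genes of endoplasmic reticulum (ER) stress and the integrated stress response kept, 13 were 2-fold higher and 2 lower (median 0.57). Sdf2l1, an ER chaperone cofactor, read 9.01 (wildtype) and 9.82 (YAP-KO) at 0 h, and 9.57 and 12.60 at 24 h. Creld2, an ER-stress inducible disulfide isomerase, read 10.71, 13.46, 12.34 and 14.73, and Syvn1, the ubiquitin ligase of ER-associated degradation, 7.56, 9.42, 7.84 and 10.19. Creld2 and Syvn1 were already 2-fold higher in YAP-KO at 0 h, which Sdf2l1 (0.81) was not.

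Derl3, which helps to export misfolded proteins from the ER, read 5.34, 5.49, 5.29 and 8.54, so only YAP-KO at 24 h was above the low end of the scale. Further members of this arm were Edem1 (2.19), Sel1l (2.16), Hyou1 (2.0) and Herpud1 (1.83), and the central chaperone BiP (Hspa5) was higher by 0.73. Ddit3, the stress-induced transcription factor CHOP, differed by 1.65. The 4 members of the list 1.5-fold or more lower were Slc7a11, the cystine transporter (-4.10), Eif4ebp1 (-1.21), Psat1 (-0.97) and Atf4 (-0.90). Other genes linked to the factor ATF4 did not share a direction: Atf5 differed by 0.62, Cth by 0.37, Trib3 by -0.18, Chac1 by -0.19 and Asns by -0.54.

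The ER stress element, CCAAT and CCACG spaced by 9 bases, occurred in 21 of the 10783 windows (0.195%). It occurred in 8 of 422 windows of 2-fold higher genes (1.90%), in 0 of 545 windows of 2-fold lower genes and in 7 of 28 windows of the ER stress list (Hspa5, Hsp90b1, Dnajc3, Creld2, Pdia6, Calr and Syvn1). The list's median difference was 1.27 with the element and 0.19 without it. A match is a description of these letters in these windows and not evidence of binding. The 200 bases before Creld2 (chr15:88819446-88819645, plus strand) and Syvn1 (chr19:6046376-6046575, plus strand) are shown with the element in capitals, on the opposite strand in Creld2.
Creld2: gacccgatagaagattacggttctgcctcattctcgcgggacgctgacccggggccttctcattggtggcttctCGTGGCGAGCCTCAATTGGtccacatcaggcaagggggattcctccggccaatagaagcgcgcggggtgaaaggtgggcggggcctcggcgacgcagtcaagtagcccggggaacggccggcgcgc
Syvn1: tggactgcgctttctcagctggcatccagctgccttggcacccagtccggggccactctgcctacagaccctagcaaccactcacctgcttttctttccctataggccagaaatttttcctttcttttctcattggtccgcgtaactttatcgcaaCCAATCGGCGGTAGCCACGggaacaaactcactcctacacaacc

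**Figure D3:**
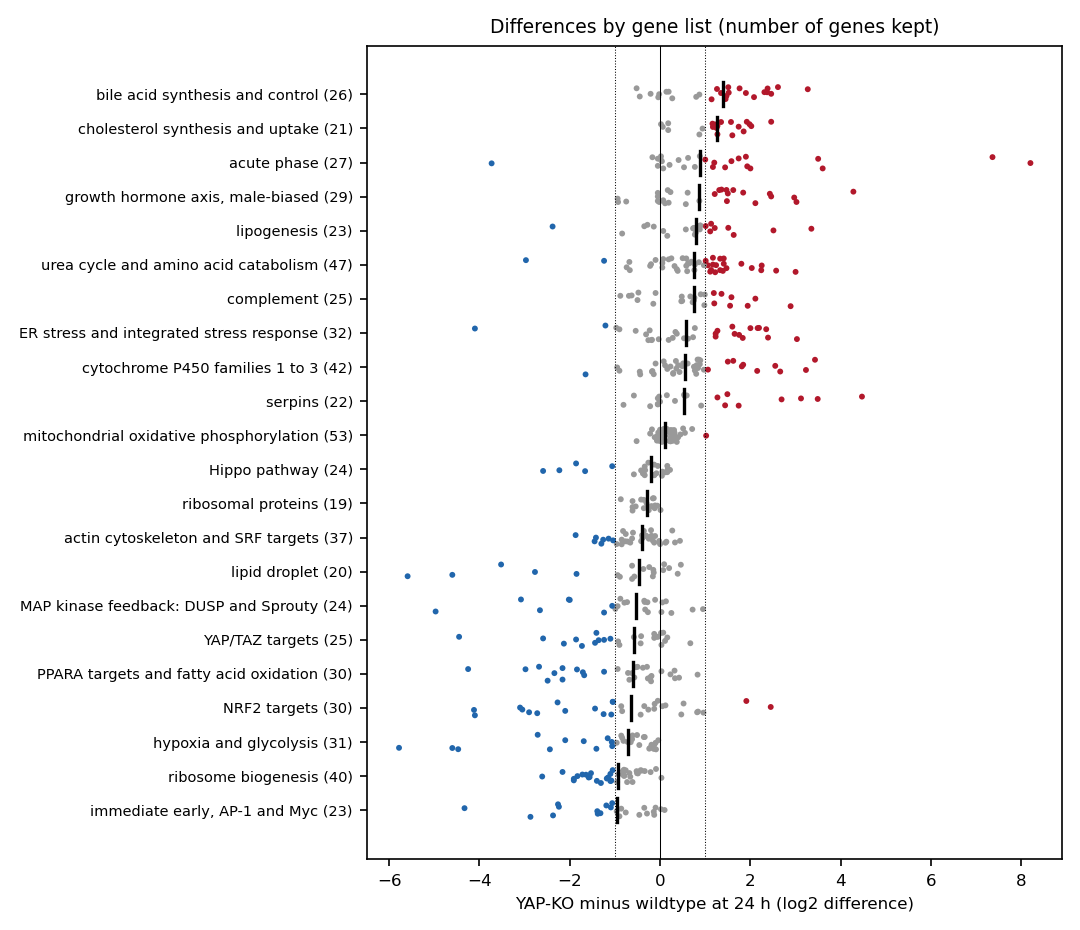
Log2 difference, YAP-KO minus wildtype at 24 h, of every gene kept in 22 of the lists, with the number of genes in parentheses; black bars are list medians, dotted lines mark 2-fold, and red and blue points lie at or beyond it. Bile acid and cholesterol synthesis have the highest medians (1.40 and 1.27), and immediate early genes and ribosome biogenesis the lowest (-0.96 and -0.94).

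Bile acid synthesis and transport had the highest median of the lists drawn, 1.40, with 16 of 26 members 2-fold higher and none lower. Cyp7a1, which catalyses the first and rate-limiting step from cholesterol to bile acids, read 10.50 (wildtype) and 10.90 (YAP-KO) at 0 h, and 5.04 and 8.31 at 24 h. Nr0b2, the repressor SHP that bile acids induce, read 8.32, 8.54, 6.22 and 8.83; enzyme and repressor were both higher in YAP-KO. The uptake carriers Slco1a1 (2.46) and Slco1b2 (2.38), the export pump Abcb11 (2.31), the reductase Akr1c6 (2.37) and the bile acid receptor Nr1h4 (1.45) were also higher. The sodium-dependent uptake carrier Slc10a1 (0.27) and the phospholipid floppase Abcb4 (0.19) differed little.

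Drug-metabolising enzymes followed. Of 42 cytochrome P450 genes of families 1 to 3 kept, 10 were 2-fold higher and 1 lower (median 0.56). Among all genes kept, 3.24% were higher and 5.73% lower. Cyp1a2, which takes part in activating acetaminophen, read 18.10, 18.65, 12.89 and 16.32, and Cyp2c70 read 18.32, 18.29, 15.46 and 18.69. Cyp2c38 (2.66), Cyp2c37 (2.55) and Cyp2c54 (2.15) came next, while Cyp2b9 (-1.65), Cyp3a59 (-0.95) and Cyp3a25 (-0.90) were lower. For Cyp2c70, Cyp2c38, Cyp2c37 and Cyp2c54 the wildtype array at 24 h was the lowest of the 4. Cyp2e1 and Cyp3a11, which like Cyp1a2 are also in the acetaminophen metabolism list, differed by only 0.49 and 0.08. Cyp2e1 read 19.38 (wildtype) and 19.87 (YAP-KO) at 24 h. The YAP-KO reading was near that array's maximum of 19.88, which can hide a larger difference.

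Genes that mark pericentral hepatocytes, the zone that acetaminophen injures, were 2-fold higher in 9 of 18 cases and lower in none (median 0.97). Besides Rgn and Cyp1a2 these included Gulo (2.73), the last enzyme of vitamin C synthesis, Slco1b2 (2.38), Cyp27a1 (1.76) and Oat (1.41). Another 7 were within 1.5-fold, among them Axin2 (0.48), Tbx3 (0.37), Nkd1 (0.11) and Znrf3 (-0.10). Oat read 16.63 (wildtype) and 15.97 (YAP-KO) at 0 h, and 10.40 and 11.81 at 24 h, far lower in both genotypes. Slc1a2, a glutamate carrier of the innermost layer, read 11.92 (wildtype) and 11.40 (YAP-KO) at 0 h, and 4.32 and 5.34 at 24 h, so both arrays at 24 h were near the low end. Periportal genes had no common direction: 4 of 16 were higher and 2 lower, around a median of 0.01; Cdh1, E-cadherin (-2.89), Etnppl (-2.74), Hal (2.24) and Albfm1 (1.92) were the largest.

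Amino acid catabolism was higher, by 2-fold or more in 20 of 47 genes and lower in 2 (median 0.76). Csad, which makes taurine, had the largest difference (3.0): it read 7.94 (wildtype) and 10.94 (YAP-KO) at 24 h. Kynu (2.57) and Haao (2.25) degrade tryptophan, Hal degrades histidine and Agxt2 (2.03) is an aminotransferase. Gpt2, mitochondrial alanine aminotransferase, went against them: it read 12.79, 12.82, 14.68 and 11.71. Got1 (-1.24) was lower too, as were Asl (-0.74), Gldc (-0.68) and Ahcy (-0.67) at 1.5-fold.

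In glucose metabolism G6pc, the enzyme that releases free glucose, read 18.39, 17.23, 11.79 and 15.30, and Pck1, the gate of gluconeogenesis, 17.58, 16.87, 15.15 and 16.92. The glycogen-targeting subunits Ppp1r3b (2.70) and Ppp1r3c (1.93) and glycogen phosphorylase Pygl (1.59) were higher, whereas the branching enzyme Gbe1 (-1.16) and Ugp2 (-0.67) were lower. Of 22 genes of the list 6 were 2-fold higher and 2 lower (median 0.14).

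Cholesterol synthesis was the most uniform list of higher genes: 15 of 21 members were 2-fold higher and none was 1.5-fold lower (median 1.27). Fdps, farnesyl diphosphate synthase, read 12.36, 13.10, 12.14 and 14.60, and Hmgcs1, an early enzyme of the pathway, 15.41, 16.54, 15.90 and 17.92. Insig1 (1.98), the sterol-regulated retention protein, Sc5d (1.92), Dhcr7 (1.85) and Idi1 (1.74) were next. Srebf2, the transcription factor of the pathway, and Scap, its sterol-sensing escort, each differed by 0.18. At 0 h this list already had a median of 0.58 and 4 members 2-fold higher.

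Fatty acid synthesis was higher in part. Fasn, fatty acid synthase, read 11.95, 12.63, 9.39 and 11.90 and Lpin1, a phosphatidate phosphatase, 14.91, 15.09, 8.41 and 11.76, while its relative Lpin2 read 11.79, 11.38, 12.05 and 9.67. Thrsp (1.63), Acss2 (1.51) and Elovl3 (1.21) were higher, Me1 was lower (-0.84) and Scd1, the major desaturase, differed by 0.16. In all, 8 of 23 members were 2-fold higher and 1 lower (median 0.79). Angptl8, an insulin-induced inhibitor of lipoprotein lipase, read 8.37, 8.67, 7.26 and 11.71, whereas Angptl4, a fasting-induced inhibitor of the same lipase, read 13.28 and 9.92 at 24 h (-3.36). The apolipoprotein gene Apoa4 (-2.61) and Mttp (-2.18), which loads lipoproteins, were lower. Apoa4 had been 1.62 higher in YAP-KO at 0 h.

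Among lipid droplet genes 5 of 20 were 2-fold lower and none higher (median -0.47), and 11 were within 1.5-fold. Cidec, which fuses droplets, read 5.57 (wildtype) and 6.30 (YAP-KO) at 0 h, and 10.99 and 5.40 at 24 h, and Plin2, the main droplet coat of hepatocytes, 15.09, 15.37, 18.18 and 15.41. G0s2, an inhibitor of the lipase Pnpla2, differed by -3.52 and Pnpla2 by -1.85. For Cidec and Pnpla2 the YAP-KO array at 24 h was the lowest of the 4.

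Of 30 genes of the fatty acid receptor PPARA and fatty acid oxidation, 11 were 2-fold lower and none higher (median -0.60). Pdk4, which blocks glucose oxidation, read 7.28, 7.97, 11.56 and 7.31. Cyp4a14, an omega-hydroxylase induced by PPARA, read 15.27, 12.45, 19.35 and 16.37 and was lower in YAP-KO at both times. Acot2 (-2.68), Ehhadh (-2.49), Cyp4a31 (-2.34) and Vnn1 (-2.16) were further members, while Ppara itself was 0.83 higher. Core enzymes of mitochondrial beta-oxidation differed less. Cpt1a (-0.38), Cpt2 (0.03), Acadm (-0.21), Acadvl (-0.20), Hadha (-0.27) and Acaa2 (0.32) were within 1.5-fold, while Acadl (-0.68) and Hadhb (-0.62) were 1.5-fold lower. At 0 h the list's median was already -0.50, with 5 members 2-fold lower.

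Genes biased to males under pulsatile growth hormone were higher in 14 of 29 cases by 2-fold and lower in none (median 0.87). Hsd3b5, a male-specific steroid enzyme, read 14.78, 14.11, 6.94 and 11.22. Keg1 (3.02), Nudt7 (2.97), Slco1a1 (2.46), Hsd3b2 (2.43) and C6 (2.11) were next, and the growth hormone receptor Ghr differed by 1.48. Cyp4a12a (-0.94), Cyp4a12b (-0.93) and the repressor Bcl6 (-0.75) lay on the other side. Among 17 female-biased genes 2 were higher and 4 lower (median -0.03).

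Hepatocyte transcription factors differed less than the enzymes, with 6 of 36 genes 2-fold higher and 1 lower (median 0.42). Besides Nr0b2, Onecut1 (2.32), Nr5a2 (1.52), Nr1h4, Prox1 (1.12) and Nr1i3 (1.12) were higher, and Cebpa was at 0.99. Gata6 (-1.51) was lower.

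Antioxidant genes that the factor NRF2 controls were lower: 13 of 30 by 2-fold, with 2 higher (median -0.64). Srxn1, sulfiredoxin, read 8.05 (wildtype) and 11.04 (YAP-KO) at 0 h, and 15.03 and 10.91 at 24 h. Nqo1, the quinone reductase, read 6.21, 6.50, 10.64 and 7.59, and Gclc, the catalytic subunit that limits glutathione synthesis, 15.70, 16.63, 18.61 and 15.51. Txnrd1 (-2.90), Hmox1 (-2.72) and Slc7a11 completed the largest. Gstm3 (2.45), Gsta3 (1.91), Abcc2 (0.96), Blvrb (0.84) and Gstm1 (0.82), which are also abundant hepatocyte genes, went against the list.

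The list of glutathione transferases and related enzymes had 9 of 29 members 2-fold higher and 4 lower (median 0.18). Of the Gstm genes kept, 5 of 7 were 2-fold higher. The alpha class had both directions, with Gsta3 at 1.91, Gsta2 at -1.05 and Gsta4 at -1.08, and so did the theta class, with Gstt1 at 1.39, Gstt2 at 0.03 and Gstt3 at -0.24. The other lower members, glutathione reductase (Gsr, -2.27) and the peroxidase Gpx3 (-1.35), are not transferases. The antioxidant response core TGACNNNGC occurred in 16.3% of all windows, in 9 of 25 of the NRF2 list, in 16.8% of those of 2-fold higher genes and in 17.8% of those of lower genes. Within the NRF2 list the median difference was -0.84 with the core and -0.12 without it.

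Genes of hypoxia and glycolysis were lower in 11 of 31 cases by 2-fold and higher in none (median -0.72). Slc2a1, the glucose transporter GLUT1, read 7.04 (wildtype) and 7.31 (YAP-KO) at 0 h, and 13.09 and 8.62 at 24 h, and Hilpda, a lipase inhibitor induced by hypoxia, 5.0, 5.41, 10.11 and 5.51. Hif1a, the oxygen-regulated factor, read 10.79, 10.85, 14.03 and 11.32. Pkm (-2.44), the pyruvate kinase of growing cells, and Egln3 (-2.10) were next. Vegfa (-0.34), Ldha (-0.46) and Pdk1 (-0.09), also textbook hypoxia genes, stayed within 1.5-fold.

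The hypoxia response core ACGTGC occurred in 9.06% of all windows, in 11.6% of those of 2-fold lower genes, in 5.69% of those of higher genes and in 16 of 29 windows of the hypoxia list, whose median difference was -0.76 with the core and -0.62 without it. The 200 bases before Hilpda (chr6:29272426-29272625, plus strand, 1 of its 2 starts in the table) and Slc2a1 (chr4:119108545-119108744, plus strand) are shown because both were among the 20 lowest genes; capitals mark the core.
Hilpda: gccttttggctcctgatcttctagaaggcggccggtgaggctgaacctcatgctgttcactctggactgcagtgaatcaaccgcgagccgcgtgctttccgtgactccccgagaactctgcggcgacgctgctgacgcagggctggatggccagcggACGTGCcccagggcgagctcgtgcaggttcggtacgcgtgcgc
Slc2a1: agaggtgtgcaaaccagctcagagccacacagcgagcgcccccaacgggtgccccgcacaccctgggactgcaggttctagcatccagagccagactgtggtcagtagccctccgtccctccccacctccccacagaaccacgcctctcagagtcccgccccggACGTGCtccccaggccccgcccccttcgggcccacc

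Immediate early genes, the first transcripts induced by growth factors, were 2-fold lower in 11 of 23 cases and higher in none (median -0.96). Myc read 5.49 (wildtype) and 7.02 (YAP-KO) at 0 h, and 9.26 and 6.39 at 24 h. Ier2 (-2.37), Egr1 (-2.24), Fos (-1.38) and Jun (-1.19) were lower too.

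The phosphatases and adaptors that MAP kinases induce to restrain themselves were 2-fold lower in 7 of 24 cases and higher in none (median -0.54). Dusp5 read 4.90, 5.07, 10.63 and 5.66 and Dusp6, the phosphatase specific to ERK, 8.03, 8.57, 11.30 and 8.64; Dusp1 (-3.08), Dusp16 (-2.02), Dusp4 (-2.0) and Spry2 (-1.24) were also lower, while Dusp19 (0.95) and Dusp23 (0.72) were 1.5-fold higher. The list of the EGF receptor, HGF and MET had no common direction, with 3 of 20 members 2-fold higher and 3 lower (median -0.02). Of the EGF receptor ligands, Btc (-2.57), Hbegf (-2.13) and Ereg (-2.02) were lower and Tgfa differed by -0.31. Ereg was -1.21 as the mean of its probe sets. Among receptors Egfr was higher by 1.72 and Erbb3 by 1.83, and Met differed by -0.47.

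Ribosome biogenesis was lower: 31 of 40 members were 1.5-fold lower and none 1.5-fold higher, with 19 at 2-fold (median -0.94). Nop58, a core protein of box C/D particles, read 9.71, 11.47, 14.27 and 11.66, and Ncl, nucleolin, 11.20, 11.12, 14.42 and 12.26. Npm1 (-1.91), Ddx21 (-1.91), Utp4 (-1.83) and Mybbp1a (-1.72) were next. The ribosomal proteins (median -0.28 over 19 genes kept) and the proteasome (median -0.16 over 40) had no member at 2-fold.

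Cell cycle genes differed little. Of 34 genes of G1/S and replication, 2 were 2-fold lower, Rrm2 (-1.87) and E2f3 (-1.10), and none higher (median -0.06). Of 11 G2/M genes kept of 25 listed, none reached 1.5-fold, and Mki67 read 5.23 and 5.36 at 24 h, after 5.21 and 5.11 at 0 h, near the low end of the scale. The cell cycle inhibitor Cdkn1a read 8.70, 12.30, 14.54 and 13.16: YAP-KO minus wildtype was 3.60 at 0 h and -1.38 at 24 h.

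In the cytoskeletal lists most genes lay within 1.5-fold, and those at 2-fold were mainly lower. Of 18 keratin and cornified envelope genes 4 were 2-fold lower and 1 higher (median -0.10). Krt8 read 12.47 (wildtype) and 14.34 (YAP-KO) at 0 h, and 18.51 and 16.25 at 24 h, and its partner Krt18, the other keratin of hepatocytes, differed by 1.82 at 0 h and by -2.23 at 24 h. Of 37 genes of actin and its regulator SRF, 7 were 2-fold lower and none higher (median -0.40); Vcl, vinculin (-1.87), Tpm4 (-1.45), Tpm3 (-1.42), Myl12a (-1.30), Zyx (-1.26) and Cnn3 (-1.14) led. Of 18 annexin and S100 genes 6 were 2-fold lower and none higher (median -0.24), among them Anxa2, Anxa5 (-1.82) and Anxa3 (-1.69). Of 17 tubulin-list genes 3 were 2-fold lower and none higher (median -0.25). Tubb2a, a beta-tubulin, read 10.41, 13.06, 15.81 and 12.33, and Tubb6 5.59, 7.73, 10.72 and 8.37, while Tubb5 (-0.10) and Tuba1c (-0.20) hardly differed. Desmocollin 2 (Dsc2, 1.58) was the only keratin-list member 2-fold higher.

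Among extracellular matrix genes 8 of 45 were 2-fold lower and 1 higher (median -0.06). Thbs1, thrombospondin, read 5.06, 5.82, 12.23 and 9.68 and the protease Adamts1 6.01, 6.21, 9.90 and 6.89. Fibrillar collagens Col1a1 (0.30) and Col1a2 (0.22) were low on every array and within 1.5-fold, and Fn1, fibronectin, was 0.91 higher.

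IL-1, IL-6 and TNF signalling had 8 of 33 members 2-fold lower and 2 higher (median -0.07). Tnfrsf12a, the receptor of the cytokine TWEAK, read 6.02 (wildtype) and 9.37 (YAP-KO) at 0 h, and 14.03 and 9.62 at 24 h. The decoy receptor Il1r2 (-2.41) and Il1b (-1.80) were lower, and the signalling subunits Lifr (1.14) and Il6st (0.64) were higher. Fas (1.02), the other member 2-fold higher, was within 1.5-fold as the mean of its probe sets. Of 28 chemokines and receptors kept, 7 were 2-fold lower and 2 higher (median -0.22): Cxcl13 (-2.85) and the neutrophil attractant Cxcl2 (-2.16) were lowest, Ccl24 (2.86) and Ccl9 (1.21) were higher, and the monocyte attractant Ccl2 differed by 0.14. Interferon-induced genes had a median of 0.05 over 44 genes, with Rsad2 (-3.39) the lowest and Stat2 (1.16) the highest.

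Cell type markers differed by type. Of 9 hepatocyte markers 6 were at the array maximum on both arrays, so hepatocyte content could not be compared through them. Neutrophil markers were 2-fold lower in 5 of the 8 kept, with a median of -1.34 that was -0.33 over all 13 listed; S100a8 read 5.41 (wildtype) and 6.0 (YAP-KO) at 0 h, and 10.06 and 7.59 at 24 h, and Retnlg 4.66, 5.02, 8.78 and 6.10. The mean reading of the 13 markers was 5.99 (wildtype) and 5.22 (YAP-KO) at 24 h, and the granule genes Mpo, Elane, Ltf and Ngp were below the filter. Ly6g, a defining marker, went the other way at 0.53.

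Over 11 genes that mark monocytes and macrophages the median was -0.02. Lyz2 (13.24 and 13.23 at 24 h), Cd68 (11.49 and 11.47) and Chil3 (9.91 and 9.87) were level between the genotypes. Cd14 (-3.73), Csf1r (-1.27) and Itgam (-0.98) were lower and Ly6c2 was 0.97 higher. Kupffer cell markers, for the resident macrophages, had a median of -0.58 over 9 genes. Vsig4 (-1.70), Marco (-1.67), Cd163 (-1.06) and Folr2 (-0.79) were lower, with Clec4f at -0.58. C6 (2.11), a Kupffer marker that hepatocytes also express, and Slc40a1 (0.59) were higher. Among sinusoidal endothelium markers Lyve1 read 8.06, 8.80, 13.57 and 9.69 and Cdh5 differed by -1.49, whereas Stab2 (0.20), Clec4g (0.02) and Kdr (0.51) did not follow.

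Stellate cell markers (median 0.18) and biliary markers (median 0.00) had no common direction; Lrat was 1.16 higher, the matrix gene Dcn differed by -1.21, and Krt19 and Epcam were near the low end on every array. Markers of T and NK cells, B cells, dendritic cells, mesothelium and of eosinophils, basophils and mast cells had no member at 2-fold, with most readings near the low end. How far cell numbers moved the differences of any other list was not tested.

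Among the small RNA classes, small nuclear RNAs stood apart. Of 653 small nuclear RNA genes kept, 195 (29.9%) were 2-fold lower in YAP-KO and 4 higher, against 5.65% lower among 12144 protein-coding genes. The lower ones had median readings of 12.87 (wildtype) and 12.56 (YAP-KO) at 0 h, and 14.38 and 12.67 at 24 h. Most of the 195 fell in a single length class, which begins at 100 bases: 182 of its 488 genes were 2-fold lower. Of the shorter genes 0 of 13 were lower. In the next longer class 2 of 59 were lower, and in the longest class 11 of 93. The result therefore describes mainly that length class and not small nuclear RNAs of every length. Rnu6, the U6 RNA of the spliceosome, read 14.47, 14.30, 16.57 and 14.45 (-2.12), while 7SK (Rn7sk) was at the array maximum. These genes are not separate measurements: 189 of the 195 are predicted genes, 48 small nuclear RNA genes share the 4 values of Rnu6, and the 195 hold only 131 different sets of values. Over all genes kept, counting each set of identical values once gave 598 higher and 992 lower.

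Other classes were nearer the background: 3.76% of pseudogenes, 3.57% of small nucleolar RNAs, 1.42% of long noncoding RNAs and 1.81% of microRNA genes were 2-fold lower. The share at or beyond 2-fold in either direction was larger at higher levels, from 1.24% of genes with a mean up to 5 to 22.5% of those above 12. Lists of bright hepatocyte genes therefore stand against a higher background than lists of dim genes.

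**Figure D4:**
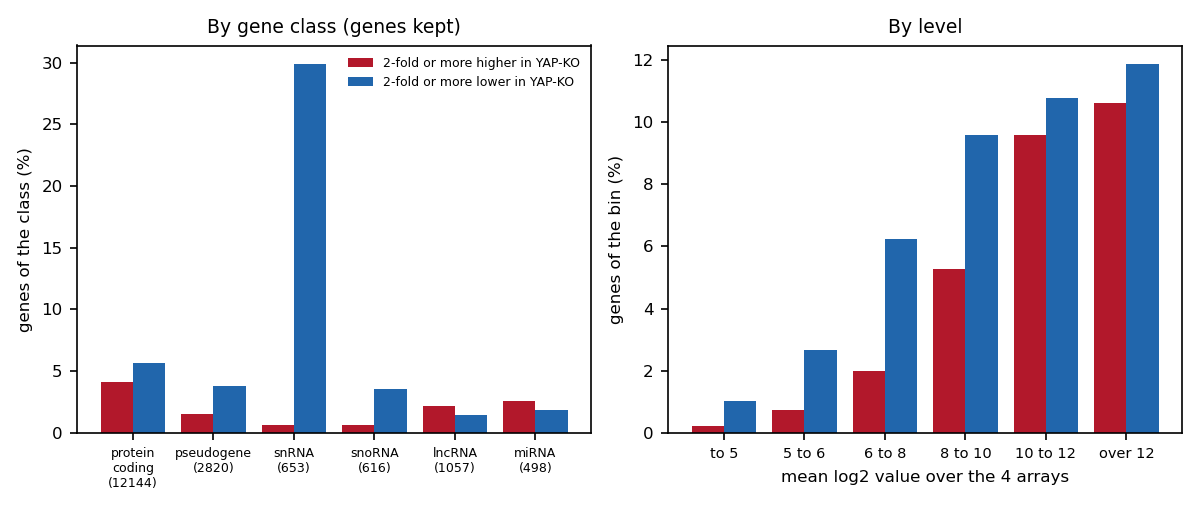
Share of genes 2-fold or more higher (red) or lower (blue) in YAP-KO at 24 h, by gene class with the number of genes kept (left) and by mean log2 value over the 4 arrays (right). The small nuclear RNA class has 29.9% of its genes lower, and the bars on the right are taller at higher levels.

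The genotype difference at 24 h was set beside the one at 0 h, which shares no array with it. Across the 18464 genes, which are not independent replicates, Pearson's r was -0.10 and Spearman's rho -0.14. Only 122 genes were 2-fold apart at both times: 51 in the same direction and 71 in opposite directions, of which 52 were higher in YAP-KO at 0 h and lower at 24 h. Of the 598 genes higher at 24 h, 548 were within 2-fold at 0 h, and of the 1058 lower genes 986 were.

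The genes with opposite directions were led by stress, cytoskeletal and lipid genes. Besides Tnfrsf12a (3.35 at 0 h and -4.41 at 24 h), Srxn1 (2.99 and -4.12), Tubb2a (2.65 and -3.48) and Tubb6 (2.14 and -2.35), they were Ppl, the desmosomal linker periplakin (3.29 and -2.88), Chka, choline kinase (2.08 and -3.49), Cers6, a ceramide synthase (2.41 and -2.36), Nrg4, a neuregulin (2.09 and -2.80), and Igfbp1, a stress-induced binding protein of insulin-like growth factors (2.61 and -1.88). Ppp1r3c was the only member of these 10 that was lower in YAP-KO at 0 h (-2.08) and higher at 24 h (1.93). For Tnfrsf12a, Srxn1 and Igfbp1 the YAP-KO readings at 0 h and 24 h were within 0.27 of each other.

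Some genes differed at 0 h alone. The metallothionein Mt1, a zinc-binding protein induced by stress and metals, read 13.60 (wildtype) and 18.29 (YAP-KO) at 0 h, and 18.39 and 18.34 at 24 h. Mt2 reached the array maximum on the YAP-KO array at 0 h and on both arrays at 24 h, from 13.58 in wildtype at 0 h. The IL-1 receptor gene Il1r1 read 12.04, 15.68, 13.64 and 13.63. For Mt1 the YAP-KO reading at 0 h was close to both readings at 24 h, for Il1r1 it was the highest of the 4, and for both the genotypes were level after the overdose.

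Of the genes apart in the same direction at both times, Saa2 and Saa1 were the largest, followed by Cyp4a14 (-2.82 at 0 h and -2.98 at 24 h), Creld2 (2.75 and 2.39), Serpina4-ps1 (2.01 and 4.47) and Steap4 (3.31 and 1.93).

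**Figure D5:**
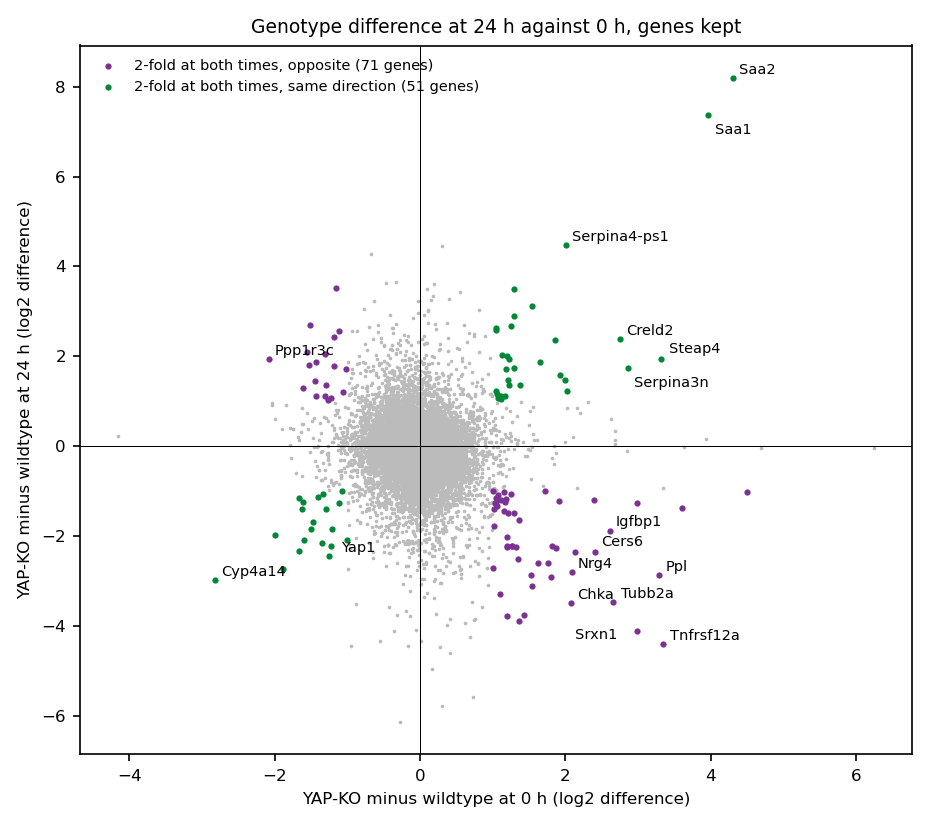
Log2 difference between YAP-KO and wildtype at 24 h (vertical axis) against the same difference at 0 h (horizontal axis) for the 18464 genes kept; purple points are 2-fold apart in opposite directions at the 2 times (71 genes) and green points in the same direction (51 genes). Most genes with a large difference at 24 h lie near 0 on the horizontal axis.

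The arrays at 24 h can also be set beside those at 0 h of the same genotype, with the limit that these differences share arrays with the one described. Genes 2-fold lower in YAP-KO at 24 h had a median difference between 24 h and 0 h of 1.70 in wildtype and 0.15 in YAP-KO. Genes 2-fold higher had medians of -1.56 in wildtype and 0.02 in YAP-KO. By list, the wildtype and YAP-KO medians were 1.68 and 0.34 for ribosome biogenesis, 1.5 and 0.01 for immediate early genes, -2.13 and -0.80 for bile acid genes and -1.63 and -0.54 for amino acid catabolism.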

How the data were processed

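The values are those of the table that the authors deposited, with 65956 probe sets on 4 arrays. As deposited by the authors, the values were read as log2 expression from their range; how the authors summarised and normalized them, and the log base, are not given in the sources used here, and array medians differed (4.47, 4.46, 4.32 and 4.36). Per the labels, RNA was extracted with Trizol and labelled with biotin (WT Plus kit). The platform annotation gave 1 gene for 31221 probe sets, several for 1529 and none for 33206; 842 symbols were updated through Entrez identifiers to RefSeq (GRCm38.p6). Of several probe sets per gene the brightest was taken (364 genes). Values within 0.01 of an array's maximum were treated as saturated: 68 genes on both 24 h arrays and 10 on 1 of them.

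Differences, counts and medians were computed in Python (pandas 2.3.3), after a check on simulated data. The members and the 70 gene lists were chosen with earlier results of these data known. Genes named are all Hippo genes kept, and the 20 highest and 20 lowest differences (without predicted, RIKEN, receptor-segment and small RNA genes). In each list they are up to 6 of the largest, those against its median by 1.5-fold and those that define it. The 10 genes most apart in opposite directions at 0 h and 24 h are also named. Mt1, Mt2, Il1r1 and the genes apart in the same direction at both times were chosen after their values were seen. So were further members named beside a list, such as Cpt1a, Acadl, Axl, Asns and Dbp. List members that were dim or had no probe set of their own were not analysed here. Number of arrays limits the precision of every value.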

Additional observations from a re-analysis of the deposited data

Results flagged for a closer look

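The genotype difference turned from 2-fold or more in 1 direction at 0 h to 2-fold or more in the other at 24 h for Tnfrsf12a (-4.41 at 24 h), Srxn1 (-4.12), Chka (-3.49), Tubb2a (-3.48), Ppl (-2.88), Nrg4 (-2.80), Cers6 (-2.36), Tubb6 (-2.35), Igfbp1 (-1.88) and Ppp1r3c (1.93). With 1 array per group the difference between the times was not tested.

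Probe sets that name several genes entered no comparison. Of 1102 at or above the filter, 14 were 2-fold higher in YAP-KO at 24 h and 68 lower. Over the genes kept the shares were 3.24% higher and 5.73% lower. The brighter probe set of the alpha-globin pair Hba-a1 and Hba-a2, carried by red blood cells, read 10.35 (wildtype) and 10.68 (YAP-KO) at 0 h, and 13.96 and 11.44 at 24 h (-2.52). The beta-globin probe set (Hbb-b1, Hbb-b2, Hbb-bs and Hbb-bt) read 13.47 (wildtype) and 11.59 (YAP-KO) at 24 h (-1.88). Alas2, the erythroid haem enzyme, read 9.86 and 9.84 at 24 h. The part of blood in other differences was not tested.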

How the results depend on the processing

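With 1 array per group no array could be left out. No paired analysis was possible because the groups share only replicate number 1. The counts of genes at 2-fold kept within 1.5 times of the main ones under the planned settings. Of the settings added after seeing the data, counting only the 12144 protein-coding genes gave 495 higher and 686 lower genes. Of these 41.9% were higher, against 36.1% in the main setting, so the balance changed as well as the number of genes. Of 484 list medians recomputed, 480 moved by less than 1.5-fold (0.58). The exceptions rest on fewer or more genes: hepatocyte markers without saturated genes (0.81), neutrophil markers without a filter (-0.33), and biliary (-0.85) and dendritic cell markers (-0.57) with the filter at the 60th percentile. Of 1950 values recomputed for single genes, none reversed; Fas (0.10) and Ereg (-1.21) moved when probe sets were averaged. Saturation hides differences of the brightest hepatocyte genes, and dim genes have no known floor.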

Other observations

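Among gene families grouped by the letters of their symbols, after the values were seen, hydroxysteroid dehydrogenases (Hsd) were 2-fold higher in 6 of 15 genes, from Hsd17b13 (-0.89) to Hsd3b5 (4.28). Zinc finger genes named Zfp had 4 of 317 higher and 4 lower, and solute carriers named Slc 26 of 239 higher and 19 lower. Tropomyosins (Tpm) were lower in 3 of 6 genes and acyl-CoA thioesterases (Acot) in 4 of 10. Over all genes kept, 3.24% were 2-fold higher and 5.73% lower.

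Of 19 circadian clock genes kept, 12 were within 1.5-fold and the median was -0.19; the 3 at 2-fold were the clock repressors Bhlhe40 (-2.04), Per1 (-1.81) and Ciart (-1.23), all lower. The output factors Dbp (0.43), Hlf (0.47) and Tef (0.07) did not follow. Kruppel-like factors had both directions, with Klf6, an injury-induced factor, reading 7.45 (wildtype) and 8.30 (YAP-KO) at 0 h and 13.53 and 9.95 at 24 h, and Klf12 (2.16) and Klf15 (1.41) higher. In iron handling, Hjv, the co-receptor that drives hepcidin, read 10.94, 10.57, 8.44 and 11.07, while hepcidin itself (Hamp) differed by 0.21.

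The lists not described above had the following counts at 2-fold, beside 3.24% higher and 5.73% lower over all genes kept. Aldo-keto reductases were higher in 5 of 13 genes and lower in 1 (median 0.64), with Akr1c14 at 2.17 and the progesterone enzyme Akr1c18 at -1.58. ABC, SLCO and SLC22 transporters were higher in 12 of 34 and lower in 4 (median 0.27); the lower ones were Abcb1a (-1.95), Slco2a1 (-1.80), Slc22a5 (-1.57) and Abcc3 (-1.44). UGT and sulfotransferase genes had 2 of 20 higher and 1 lower, Sult1e1, the oestrogen sulfotransferase (median 0.29). Acetaminophen metabolism, which overlaps the P450, transferase and NRF2 lists, had 3 of 25 higher and 5 lower (median 0.08), with the sulfate donor enzymes Papss1 (1.21) and Papss2 (1.04) higher.

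Choline and phospholipid genes had 2 of 25 higher, among them Pemt (2.11), which methylates phosphatidylethanolamine, and 4 lower (median -0.02). Metal handling had 3 of 24 higher and 3 lower (median -0.04). Heat shock genes had 3 of 24 higher and none lower (median 0.10), and oxidative phosphorylation 1 of 53 higher and none lower (median 0.10). Among p53 targets 2 of 24 were higher, Ccng1 (1.37) and Fas (1.02), and 4 lower (median -0.13). Fas was 0.10 as the mean of its probe sets. In the BCL2 family and cell death list the survival gene Bcl2l1 was at -2.33, with 1 of 30 higher and 3 lower (median -0.02). The higher member was only just past 2-fold, at 1.02. Of TGF-beta, BMP and WNT genes 7 of 34 were lower, led by the receptor Tgfbr2 (-2.25), and 2 higher, the activin chains Inhbe (1.87) and Inhbc (1.71); the median was -0.31. The 5 major urinary proteins kept and the 4 smooth muscle markers kept had no member at 2-fold, 1 of 4 platelet markers (Ppbp, -1.50) was lower, and so was 1 of 12 housekeeping genes (Tfrc, the transferrin receptor), with a median of -0.29.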
